A study of Homo sapiens with 6 samples.

Results

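The genes described here encode the CD3 chains of the T cell receptor: CD3D (delta), CD3E (epsilon), CD3G (gamma) and CD247 (zeta). They were chosen by name, and all 4 were measured among 17687 genes, each by 1 probe set. The cells were Jurkat, an established human T-ALL (T cell acute lymphoblastic leukaemia) line, with no genetic change named in either group. In the 3D group (3 arrays) cells were mixed into bovine type I collagen at 1.7 mg/mL, which set for 1 h and was then covered with warm medium for 2 h. In the suspension group (3 arrays), which the labels call control, cells stayed in liquid culture for the same 3 h. All cells were in RPMI with 10% serum. As a model, each group is a single cell line studied at a single time. The labels call the samples biological replicates without saying what separated them, so p-values measure the spread between these samples, which may be technical.

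The antigen-binding chains of the T cell receptor have very short tails inside the cell and signal through the CD3 chains. Epsilon pairs with gamma and with delta, while zeta forms a dimer with itself that joins late and is needed for transport of the complex to the surface. The tails of all these chains carry ITAMs, tyrosine motifs that the kinase LCK phosphorylates and to which the kinase ZAP-70 then binds, and zeta carries more of them than any other chain. CD3E, CD3D and CD3G lie beside each other on chromosome 11, with CD3D and CD3G head to head, whereas CD247 lies on chromosome 1.

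The reference sequence before the start is shown for CD247 and CD3D, the 2 of the 4 genes matched by symbol in the promoter table, from RefSeq on GRCh38.p14. For both, every 3D array was below every suspension array. Each run holds the 250 bases before the gene's start, 5′ to 3′ on the gene's own strand, which is the minus strand for both. The CD247 window is chr1:167518530-167518779 and the CD3D window is chr11:118342706-118342955. Capitals mark the ETS motif AGGAAG and the RUNX motif TGTGGT, read on both strands.
CD247: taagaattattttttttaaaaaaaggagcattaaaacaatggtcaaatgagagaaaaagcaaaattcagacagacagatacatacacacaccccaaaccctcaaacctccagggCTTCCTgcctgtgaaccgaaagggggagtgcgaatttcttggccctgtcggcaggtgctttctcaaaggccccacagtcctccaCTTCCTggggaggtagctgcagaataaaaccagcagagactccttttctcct
CD3D: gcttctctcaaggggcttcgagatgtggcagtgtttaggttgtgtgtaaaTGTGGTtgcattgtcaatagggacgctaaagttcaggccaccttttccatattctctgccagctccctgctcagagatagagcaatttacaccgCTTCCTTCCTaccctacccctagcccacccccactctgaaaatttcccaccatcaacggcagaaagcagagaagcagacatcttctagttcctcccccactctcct

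Both windows held 2 matches to AGGAAG. In CD247 these began 136 and 52 bases before the start, and in CD3D 106 and 102 bases before it, where they overlap. Of 27305 windows of this length in the table, 28.7% held the ETS motif and 5.68% held 2 or more matches. The RUNX motif had 1 match in CD3D and 0 in CD247, and 10.9% of all windows held it. A GATA motif (AGATAA and AGATAG, or TGATAA and TGATAG, both strands) had 1 match in CD3D and 0 in CD247, against 22.9% of all windows, and the E-box CANNTG had 0 in CD3D and 2 in CD247, against 62.2%. The letters TATAAA were in neither window and in 11.1% of all windows. GC content was 45.6% for CD247 and 50.4% for CD3D, with a median of 58% over all windows. These matches describe letters, not binding.

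CD247 had the largest difference of the 4 genes, a lower value in 3D, though it did not pass the test over all genes. Expression is the deposited log2 value. It measured 8.02, 7.89 and 7.83 in 3D replicates 1, 2 and 3, and 8.40, 8.50 and 8.39 in the suspension replicates of the same numbers. Every 3D array was below every suspension array, and the gap between the groups was wider than the range within either. The means were 7.91 ± 0.10 in 3D and 8.43 ± 0.06 in suspension (SD, n = 3 each). The log2 difference (3D minus suspension) was -0.52 ± 0.15 (SE), a 1.43-fold lower level, with a 95% interval from -0.85 to -0.18. The limma test gave an unadjusted p of 0.00586 and an adjusted p of 0.380 over all genes. Within replicate numbers the differences were -0.38, -0.61 and -0.56, all lower in 3D, as in all 3 pairs for 19.8% of genes (20.3% were higher in all 3). Of all genes, 1.27% had a difference this low or lower. In bulk RNA fewer cells with a transcript and less of it per cell cannot be told apart.

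CD3D also had lower values in 3D, by a smaller margin. It measured 9.36, 9.20 and 9.38 in 3D and 9.78, 9.67 and 9.44 in suspension, in the order of replicates 1, 2 and 3. The groups did not overlap, but the highest 3D array and the lowest suspension array, both of replicate 3, lay close together. The means were 9.32 ± 0.10 in 3D and 9.63 ± 0.17 in suspension (SD, n = 3 each), a log2 difference of -0.31 ± 0.16 (SE) with a 95% interval from -0.67 to 0.04. It did not pass (limma, unadjusted p 0.0795, adjusted p 0.546). By replicate number the differences were -0.41, -0.46 and -0.06. As many as 9.98% of all genes had a difference as low or lower.

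CD3E, the partner of both gamma and delta, differed by less than its replicate spread. It measured 11.46, 11.15 and 11.23 in 3D and 11.61, 11.21 and 11.26 in suspension. The groups overlapped, and replicate 1 was the highest array of each group. The means were 11.28 ± 0.16 in 3D and 11.36 ± 0.22 in suspension (SD, n = 3 each). The log2 difference was -0.08 ± 0.17 (SE), with a 95% interval from -0.46 to 0.31 and an adjusted p of 0.904 (limma). The difference was small in each replicate number, at -0.15, -0.05 and -0.03.

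CD3G, the gamma chain gene, had nearly equal means. It measured 10.52, 10.05 and 9.96 in 3D and 10.45, 10.00 and 9.99 in suspension. As with CD3E, the groups overlapped and replicate 1 stood above the other two replicates in each group. The means were 10.18 ± 0.30 in 3D and 10.14 ± 0.26 in suspension (SD, n = 3 each), a log2 difference of 0.03 ± 0.20 (SE) with a 95% interval from -0.41 to 0.48. Its adjusted p was 0.968 (limma). The differences by replicate number were 0.08, 0.05 and -0.02. The intervals of CD3E and CD3G hold both no change and changes as large as that of CD3D, so neither gene was shown to be unchanged.

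**Figure D1:**
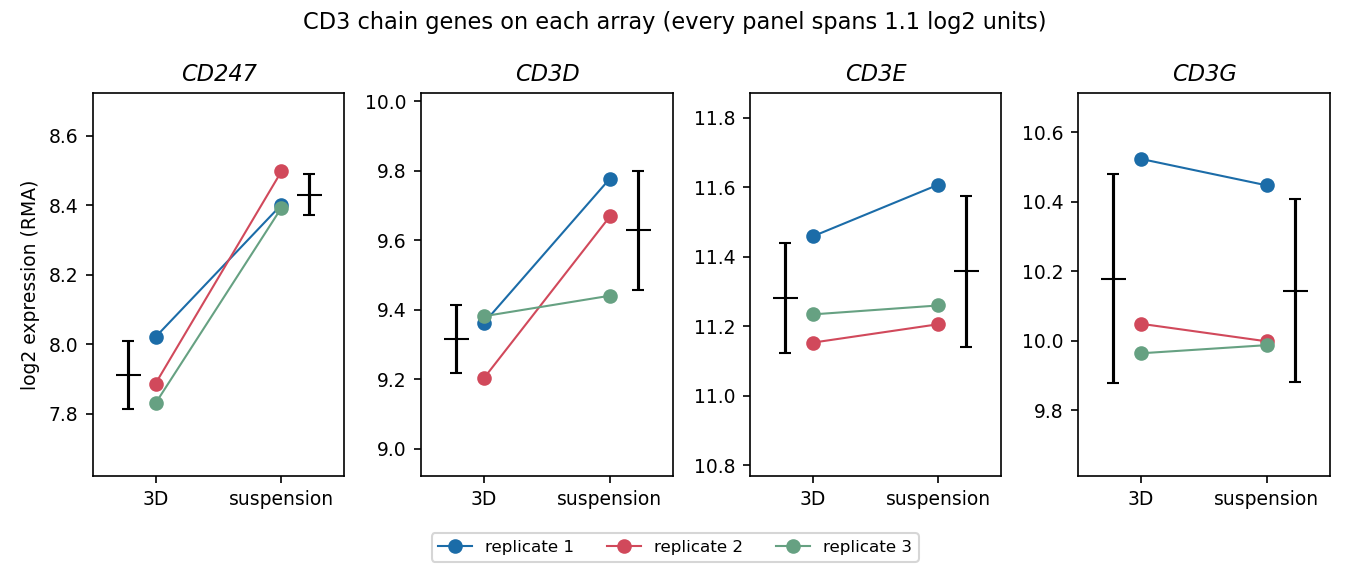
Log2 expression of CD247, CD3D, CD3E and CD3G on each of the 6 arrays, 3D left and suspension right, with every panel spanning the same number of log2 units. Points joined by a line share a replicate number, and the black marks give the group mean ± SD (n = 3). The 3D and suspension points are apart for CD247 (at most 8.02 in 3D, at least 8.39 in suspension) and close for CD3D, and replicate 1 is high in both groups for CD3E and CD3G.

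Across the 4 genes, 3 were lower in 3D and 1 was higher, with a median log2 difference of -0.19. Over all 17687 genes 9311 were lower and 8376 higher, with a median of -0.02. Of the 4, 0 passed limma at an adjusted p under 0.05, where 0% of all genes passed. At an unadjusted p under 0.05, 1 of the 4 passed, CD247, against 9.87% of all genes (3.97% lower and 5.9% higher in 3D). The groups did not overlap for 2 of the 4, both lower in 3D, against 8.03% of all genes on the lower side and 8.28% on the higher side.

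The replicate numbers recur in both groups, and the same comparison was fitted with the replicate number as a block. For CD247 this gave the same difference with an SE of 0.15 and an adjusted p of 0.123 (limma), in a fit where 0.0905% of all genes passed and none of those on the lower side. CD247 passed, with the same difference, when the block was joined to a filter. This filter kept the 8342 genes with a mean of at least 6 over the arrays. Its adjusted p was then 0.0133 (SE 0.14). That fit called 14.4% of the genes it tested, 3.78% as lower and 10.6% as higher in 3D. CD3D, CD3E and CD3G did not pass there, with adjusted p of 0.122, 0.727 and 0.882. Without replicate 3 of both groups the call of CD247 was lost (adjusted p 0.110), in a fit where all genes shared 1 SE (0.19). Without the block, the filter alone left CD247 at 0.313.

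The CD247 difference was similar across the choices tried, many of which could not move it. The block over all arrays and the gene filters leave a gene's difference unchanged. Leaving out arrays cannot reverse the sign where groups do not overlap, as for CD247 and CD3D. Leaving out each array in turn gave -0.57 to -0.48, and 26 alternatives in all gave -0.59 to -0.47. For CD3D the 26 ran from -0.44 to -0.23. CD3E lay between -0.16 and 0.05 and CD3G between -0.14 and 0.19, so the sign of both depended on which arrays were kept. The adjusted p of CD247 ran from 0.00472 to 0.806 over the same alternatives.

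**Figure D2:**
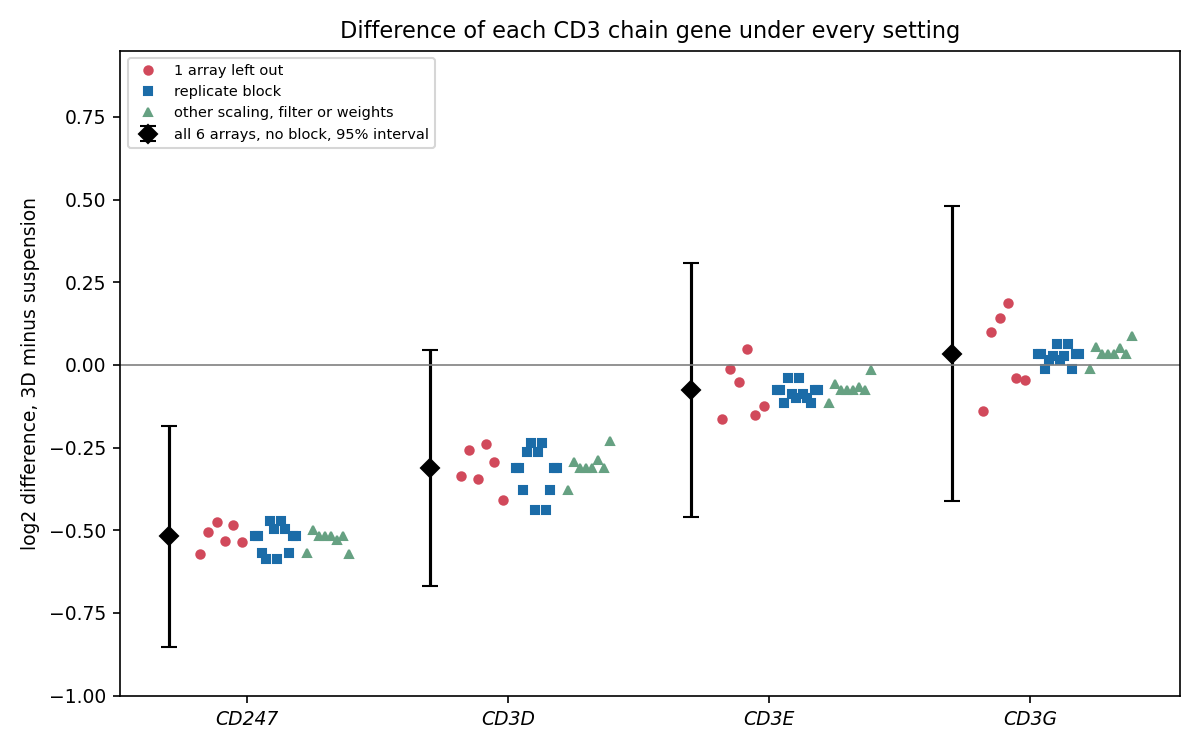
Log2 difference (3D minus suspension, vertical axis) of each gene under every setting. Black diamonds give all 6 arrays without the block, with 95% intervals; coloured points leave out 1 array, add the replicate block, or change the scaling, filter, spread estimate or weights. All points of CD247 and CD3D lie below 0, while those of CD3E and CD3G lie on both sides of it.

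The chains were also set against each other on the same array, which asks whether their messages differed unequally between the groups. The log2 ratio of CD247 to CD3G was -2.50, -2.16 and -2.13 in 3D and -2.05, -1.50 and -1.60 in suspension. The ratio of each gene to another depends on the probes, so only its difference between groups is read. That difference was -0.55, and the groups did not overlap. The ratio of CD247 to CD3E differed by -0.44, also without overlap, and that of CD3D to CD3E by -0.24, without overlap. CD247 to CD3D differed by -0.20, CD3D to CD3G by -0.35 and CD3E to CD3G by -0.11, each with overlapping groups. A two-sided exact permutation test of arrays between groups returned p = 0.1 for the 3 ratios without overlap, the smallest p that 3 against 3 allows, and p = 0.3, 0.2 and 0.4 for the other three. The 6 ratios share genes and were not adjusted, and this design cannot reach 0.05 for any of them. Each ratio has the gene of the more negative difference first, so its negative mean difference follows from that order. Ratios of other genes were not counted as a background. By replicate number, 5 of the 6 ratios were lower in 3D in all 3 pairs. The exception was CD247 to CD3D, at 0.03, -0.15 and -0.50. CD3D to CD3G gave -0.49, -0.52 and -0.04, and CD3E to CD3G -0.23, -0.10 and -0.0023. A two-sided exact sign-flip test on the pairs, added after the data were seen, gave p = 0.25 for those 5, the smallest that 3 pairs allow, and p = 0.5 for CD247 to CD3D.

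The cells carried the genes of their labelled lineage. Of 19 T cell markers 16 were measured, and 14 of these had a mean of at least 6. The mean over the 16 was 7.76 to 7.98 on the 3D arrays and 7.98 to 8.11 on the suspension arrays. Their median log2 difference was -0.22, with 11 lower and 5 higher in 3D and 0 passing (limma, adjusted p under 0.05). The array means of the groups overlapped, and the part of the marker level in the values of CD247 and CD3D was not tested. Of 40 markers in 6 lists for cell types outside the T lineage (blood, stromal, endothelial and epithelial), 7 had a mean of at least 6, and their median level was 4.20. The mean over the 40 was 4.40 to 4.51 in 3D and 4.49 to 4.61 in suspension. CD79A, a B cell receptor chain gene, was the brightest of them at 8.14 ± 0.41 in 3D and 8.43 ± 0.07 in suspension (SD, n = 3 each). The values hold no zero and no detection call, so an absent transcript cannot be told from a dim one. All 4 CD3 genes lay high on the arrays: the lowest of their values, for CD247, was at the 77.1 percentile of genes on its array, and all values of CD3E were above the 99th.

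The arrays correlated pairwise at 0.971 to 0.991 over all genes. Array medians ran from 5.55 to 5.64, and with 3 arrays a group precision is limited. The leading principal component (42.8% of the variance) set replicate 1 apart, at 14.2 in 3D and 40.4 in suspension, against -29.2 to -4.90 for the other arrays. CD3E and CD3G were also highest on the replicate 1 arrays, and the part of this component in their values was not tested.

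The receptor genes around the CD3 chains were taken from 5 lists. Over the 69 measured genes of these lists, 44 were lower and 25 higher in 3D, with a median log2 difference of -0.11. None passed limma at an adjusted p under 0.05, with or without the block alone. At an unadjusted p under 0.05 there were 3 higher and 2 lower of the 69 without the block, against 5.9% higher and 3.97% lower of all genes. Groups did not overlap for 8 of the 69 on the lower and 3 on the higher side, against 8.03% and 8.28% of all genes. These counts lie near the background.

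Of 8 genes for the receptor's own chains and their stabiliser, 2 were measured, and TRAC, TRBC1 and TRBC2 were not analysed here. PTCRA, the pre-T cell receptor alpha chain used by immature thymocytes, measured 4.87 ± 0.21 in 3D and 5.12 ± 0.03 in suspension (SD, n = 3 each). Its log2 difference was -0.25 ± 0.16 (SE), with an adjusted p of 0.616 (limma). TRAT1, an adaptor that binds zeta and steadies the surface complex, measured 8.88 ± 0.17 in 3D and 8.81 ± 0.08 in suspension (SD, n = 3 each). Its difference of 0.08 ± 0.16 (SE) was within the replicate spread.

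Among 25 measured kinases and adaptors that act just below the CD3 tails, 17 were lower and 8 higher in 3D, with a median log2 difference of -0.13 and 0 passing. LCP2, the adaptor SLP-76, had the most negative log2 difference of the list. It measured 9.07 ± 0.11 in 3D and 9.58 ± 0.16 in suspension (SD, n = 3 each), a difference of -0.51 ± 0.16 (SE) with an adjusted p of 0.399 (limma). PTPN22, a phosphatase that restrains LCK and ZAP-70, stood on the opposite side at 8.01 ± 0.16 in 3D and 7.35 ± 0.30 in suspension, a difference of 0.66 ± 0.19 (SE) with an adjusted p of 0.380. NCK1, an adaptor that binds the tail of epsilon, had a difference of 0.38 ± 0.16 (SE; adjusted p 0.496). The groups did not overlap for any of these 3 genes, which in part follows from picking the 3 of smallest p. In the whole list of 25, 2 lacked overlap on the lower and 2 on the higher side. Over all genes the shares were 8.03% and 8.28%. The kinase LCK, the adaptor LAT and the kinase ZAP70 were chosen for their roles, with values already seen. They differed by -0.28 ± 0.17, -0.24 ± 0.21 and -0.12 ± 0.25 (SE), each with overlapping groups.

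The 16 genes of receptor turnover comprise ubiquitin ligases, adaptors and trafficking factors that remove or recycle the complex. Of these, 9 were lower and 7 higher in 3D, with a median log2 difference of -0.13 and 0 passing. RAB35, a small GTPase of endosome recycling, had -0.30 ± 0.15 (SE), ITCH, a ubiquitin ligase, 0.24 ± 0.16, and SLA, the adaptor SLAP that promotes zeta degradation, -0.24 ± 0.18. Only RAB35 of these 3 had groups without overlap, and its adjusted p was 0.539 (limma). LAPTM5, a lysosomal protein also known to promote zeta degradation and named after its values were seen, had -0.24 ± 0.30.

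Of 15 measured transcription factors known or proposed to act on CD3 genes, 9 were lower and 6 higher in 3D, with a median log2 difference of -0.11. ID3, an inhibitor of E proteins, measured 6.11 ± 0.33 in 3D and 6.66 ± 0.12 in suspension (SD, n = 3 each), a difference of -0.55 ± 0.19 (SE) with an adjusted p of 0.412 (limma). BCL11B, a factor of T cell commitment, had -0.44 ± 0.24 with overlapping groups, and by replicate number -0.14, -0.29 and -0.90. Its value was -0.18 without 3D replicate 3 and -0.68 without 3D replicate 1. RUNX3 had -0.24 ± 0.15. ELF1 and ETS1, whose family recognises the ETS motif printed above, were named after their values were seen. Their differences were 0.29 ± 0.19 and 0.23 ± 0.16 (SE), and neither passed (limma, adjusted p 0.623 and 0.644). A link of these factors to the values of CD247 and CD3D was not tested.

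The 12 other genes for proteins with ITAM-type motifs, most of them from B, myeloid or NK cells or platelets, had a median level of 4.78. Of these, 9 were lower and 3 higher in 3D, with a median log2 difference of -0.06. FCGR2A, an Fc receptor gene with near-identical copies, measured 5.49 ± 0.30 in 3D and 4.82 ± 0.15 in suspension (SD, n = 3 each). Its difference was 0.67 ± 0.19 (SE; limma adjusted p 0.380), and which copy gave the signal is uncertain. The copy FCGR2C, named after its values were seen, had -0.35 ± 0.18 (SE; adjusted p 0.543). CLEC7A had -0.34 ± 0.16 at a mean of 2.75, and FCER1G, whose product can stand in for zeta, had -0.45 ± 0.22 at a mean of 4.15. At such levels expression itself is uncertain.

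With the replicate block and the filter at 6, 4 of the 52 list genes tested passed (limma). PTPN22 was higher in 3D (adjusted p 0.00346), and ID3, LCP2 and BCL11B were lower (0.0121, 0.0166 and 0.0457). With the block alone none of them passed (limma, adjusted p 0.0892 for PTPN22, then 0.129, 0.142 and 0.230). Their differences are the same in these fits. The error, the prior degrees of freedom (9.78 with the block alone, 25.0 with the filter) and the number of genes adjusted over (17687 and 8342) differ. PTPN22 passed without any 1 pair of arrays. Without pair 2 or pair 3 all genes shared 1 SE, so calls there follow the size of a difference, not the gene's own spread. ID3 lost its call without pair 1 (adjusted p 0.0614) or pair 3 (0.205), and LCP2 without pair 2 (0.0754) or pair 3 (0.123). BCL11B lost it without pair 3, where its difference was -0.21 (0.575), and with the filter at 5 instead of 6 (0.0903). Its mean of 6.45, like that of ID3 at 6.39, lies close to the filter at 6 and below a filter at 7. CD247 passed in the same fit, where 14.4% of genes did.

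**Figure D3:**
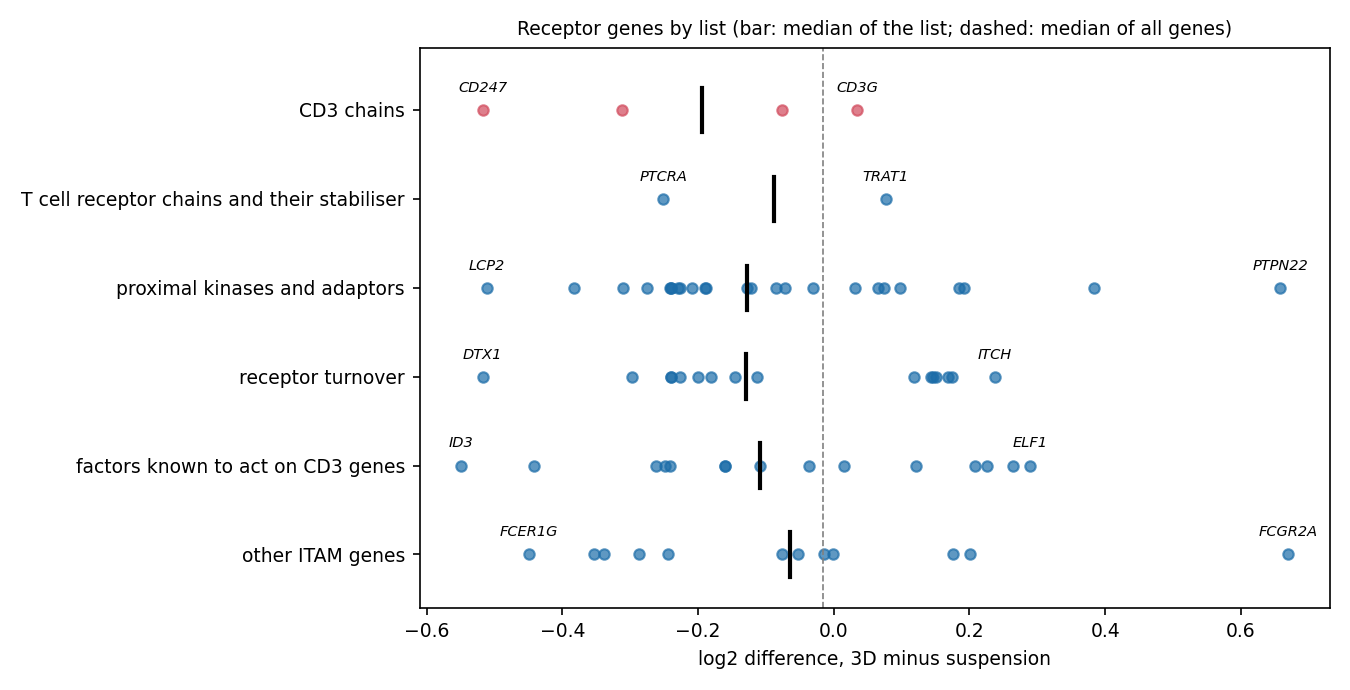
Log2 difference (3D minus suspension, horizontal axis) of each measured gene by list, with the CD3 chains on top. Black bars give each list's median, the dashed line the median of all genes, and the outermost gene on each side is named. CD247 lies at the lower end of the range of all lists, beside LCP2, DTX1 and ID3, and PTPN22 and FCGR2A lie farthest to the higher side.

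Position was compared next, using the order of genes in the RefSeq table. Around CD3D, 17 protein-coding genes other than the CD3 genes were measured with centres within 500 kb, 10 lower and 7 higher in 3D. Their median log2 difference was -0.03 and 0 passed (limma, adjusted p under 0.05). The lowest was SCN4B at -0.41 ± 0.15 (SE) and the highest was UBE4A, the neighbour of CD3G, at 0.31 ± 0.18, both named after their values were seen. Around CD247, 8 neighbours were measured, 5 lower and 3 higher, with a median of -0.15. CREG1, the nearest measured one, had 0.16 ± 0.17, and the lowest was GPA33 at -0.40 ± 0.16, at a mean of 4.10.

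**Figure D4:**
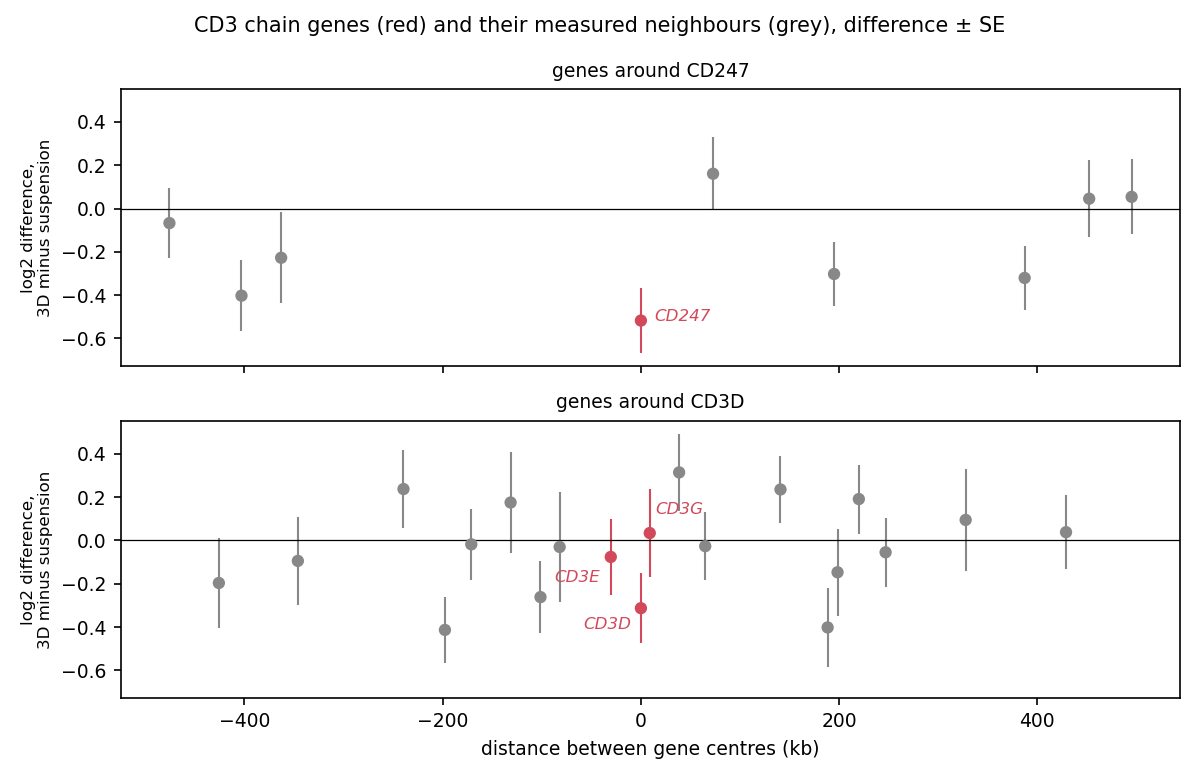
Log2 difference (3D minus suspension, vertical axis, ± SE) of measured genes against the distance of their centres from CD247 (top) and CD3D (bottom) in kb, CD3 genes in red. CD247 is the lowest point of its region, and the 3 CD3 genes of chromosome 11 lie within the range of their neighbours, from -0.41 to 0.31.

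CD3E, CD3D and CD3G sit in a gene-rich region, with 25, 24 and 23 protein-coding genes within 500 kb, against 10 for CD247 and a median of 11 over all genes. After each array's trend on gene span and on this gene density was removed, the differences were -0.57 ± 0.15 (SE) for CD247, -0.23 ± 0.16 for CD3D, -0.01 ± 0.17 for CD3E and 0.09 ± 0.20 for CD3G, and none passed (limma, adjusted p 0.501 to 0.985).

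Genes whose 6 values followed each member most closely were looked up among 8341 other genes of mean at least 6, by Pearson's r as a description. The 6 arrays share 2 groups and 3 replicate numbers, and with so few points many genes reach a high r. For CD247 these were TGFB1, the gene of transforming growth factor beta 1 (r = 0.986), HLA-C, an MHC class I gene (0.980), and PCGF2, a Polycomb group gene (0.976). TGFB1 measured 7.70, 7.64 and 7.49 in 3D and 8.05, 8.09 and 7.96 in suspension. It separated the groups as CD247 did, which follows from how TGFB1 was picked. For CD3D they were RETREG2 (0.996), PPP6R1 (0.991) and CLCN5 (0.983). For CD3E they were TIMM22, a mitochondrial import gene (0.996), ZDHHC16 (0.995) and CAMKK2 (0.994), and for CD3G they were SLC71A1 (0.997), UBE2G1 (0.994) and E2F3, a cell cycle transcription factor gene (0.994). TIMM22 measured 9.40, 8.69 and 8.84 in 3D and 9.75, 8.72 and 8.86 in suspension. Replicate 1 was high in both groups, as for CD3E itself, which again follows from how TIMM22 was picked.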

How the data were processed

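Expression was measured on 6 arrays, 1 per Jurkat sample, from total RNA labelled with biotin by a GeneChip WT PLUS kit, per the labels' protocols. The authors deposited 1 log2 value per probe set and array, made with RMA and the Transcriptome Analysis Console, per the submitters' processing notes, with no version or genome build in the sources used here. RMA corrects for background, forces the arrays to share 1 distribution and condenses the probes of each set, which shrinks differences of dim genes and can hide a global shift. No column was left over.

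Of 21448 probe sets, 17709 had 1 gene symbol, 0 several and 3739 none. All 17709 matched RefSeq (GRCh38.p14). The highest-mean probe set was kept for the 20 genes with several, which left 17687 genes. The members, lists and alternatives were chosen with earlier results of these data known. The rule for named genes took the members, the 3 of smallest p per list, all measured receptor chains, and the 3 of highest correlation with each member; other genes (LCK, LAT, ZAP70, LAPTM5, ELF1, ETS1, FCGR2C, CD79A, DTX1, SCN4B, UBE4A, CREG1 and GPA33) were named after their values were seen.

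Groups were compared with lmFit and eBayes of limma 3.58.1 in R 4.3.3, as 3D minus suspension, without block or filter, two-sided, Benjamini-Hochberg over all genes, threshold 0.05. A check on simulated data used independent noise on each array and planted changes larger than those of the members. It does not cover shared replicate structure or changes of the members' size. Figures used matplotlib 3.10.9 (Python 3.11.15). Deviations from the group means correlated between arrays of the same number (0.521, 0.120 and 0.337, all over 0.1), and the numbers were therefore treated as pairs. For number 2 this is weak. There 3D replicate 2 correlated better with suspension replicate 3 (0.149), and suspension replicate 2 with 3D replicate 3 (0.230). Degrees of freedom were 4 residual plus 6.79 prior, 2 and 9.78 with the block, and 2 and 25.0 with the block and the filter at a mean of 6. Fits that leave out a pair have 1 residual degree of freedom. With the block and the filter at 6, the prior was infinite without pair 2 or pair 3. All genes then shared 1 SE (0.167 and 0.192).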

Additional observations from a re-analysis of the deposited data

How the results depend on the processing

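Without the block, 0 genes passed under any of the 14 alternatives (limma). The lowest count with an unadjusted p under 0.05 was 1031 of 8342 genes with a mean of at least 6. The highest was 2181 of 21448 probe sets, against 1745 of 17687 genes in the fit described above. These counts have different totals and do not rank the shares. With the replicate block 16 genes passed over all genes, 6 after quantile normalization once more, and 21, 150 and 36 without replicate pair 1, 2 and 3. With the block and a mean of at least 6 the count was 1199. Settings chosen after the data were seen gave 1216 with that filter and quantile normalization, 458, 1457 and 406 with that filter and without pair 1, 2 and 3, and 864 and 1177 with the filter at 5 and at 7. CD247 was lower in 3D in all 26 alternatives, a sign that leaving out arrays, the block or a filter could not reverse. It passed in 6, all with the block and a filter. There it stood at -0.52 for filters at 5, 6 and 7 (adjusted p 0.0337, 0.0133 and 0.00472), -0.57 with quantile normalization (0.0113), -0.59 without pair 1 (0.0353) and -0.47 without pair 2 (0.0331). CD3D was also lower in all 26, with the same limit, and passed in none of them. CD3E turned to 0.049 without suspension replicate 1, within a range from -0.16 over arrays left out. CD3G turned to -0.012 after quantile normalization, with or without the block and the filter. Over arrays left out it ran from -0.14 without 3D replicate 1 to 0.19 without suspension replicate 1. It was also below 0 without suspension replicate 2 or 3 (-0.04 each). Differences in the 6 ratios between members kept their sign in all alternatives. The block over all arrays and the filters could not move them. Leaving out arrays could not reverse those of the 3 ratios without overlap. Of the list genes, 0 passed without the block, where no gene did. With the block and a mean of at least 6, 4 of 52 passed, against 14.4% of all genes tested there. With that filter it was 4 after quantile normalization and 1 to 4 without 1 pair, and 5 and 3 passed at 5 and 7. Those fits called 406 to 1457 genes in all, so the counts are not read as a result about the lists. The cause of these shifts was not tested. Since dim genes have shrunken differences on these arrays and no detection call was used, the level of CLEC7A or FCER1G limits what their values show.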
